A study of Mus musculus with 8 samples.

Results

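The control explants of a study of Wnt signalling in the embryonic mouse inner ear are described here on their own, as a picture of which genes a cultured cochlea transcribes and how steadily. The members are the 4 control libraries of the 8 in the series, and all 42775 genes of the deposited table were considered in them. Cochleas of wild-type Swiss Webster mice, an outbred stock, were taken at E12.5 (embryonic day 12.5), kept in culture for 24 h and then given vehicle, DMSO, for 6 h. They are thus vehicle-treated rather than untouched, although the sample names call them controls, and the source is also named as E14.0 tissue. Control replicates 1 and 3 are labelled female and control replicates 2 and 4 male. The 4 are described as biological replicates, but how many embryos or cochleas went into each library is not stated. No group was compared with another, so no test was run and no p-value is given.

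The cochlea grows as a coiled epithelial duct that buds from the otic vesicle. Part of its floor is the prosensory domain, whose progenitors leave the cell cycle before they become hair cells and supporting cells of the organ of Corti. Around the duct lie periotic mesenchyme and the cartilage of the otic capsule, and alongside it run spiral ganglion neurons, Schwann cells, vessels and blood. An explant carries all of these to some degree, and a bulk library mixes their RNA. Fewer cells of a type and less RNA per cell cannot be told apart in such libraries.

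Polyadenylated RNA was sequenced as 75 bp paired-end reads. The authors' assigned reads numbered 8.93e+07, 6.65e+07, 8.33e+07 and 8.09e+07 in control replicates 1 to 4, which is the order in which 4 values are given throughout, and means are given ± SD over these 4 libraries. A single read was worth between 0.0112 and 0.015 CPM (counts-per-million, over the assigned reads), so that counting error was small for most of the genes named below. Genes were compared with each other only per length, as TPM (transcripts-per-million, here the reads per kilobase of exon, scaled to the same total in each library). A gene is said to lie above another only where it did so in each of the 4 libraries. Most genes named below follow a rule given with the processing. Bdnf, Ceacam16, Col10a1, Fos, Gsk3b, Hba-a2, Hes5, Higd1b, Hoxb2, Hspa1b, Krt8, Krt18, Lfng, Lin28b, Matn1, Mest, Myh11, Myo7a, Ntf3, Otof, Otor, Otx2, Pax8, Ptch1, Rpl24, Tbx1, Tmc1, Tyrp1 and the genes of the chromosomal stretches described last fall outside that rule and were chosen after their values were seen.

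Of the 42775 genes, 14371 (33.6%) reached a mean of 1 CPM, the threshold used here for a gene in use. Among the 21548 protein-coding genes the number was 12928 (60%), and 13691 genes reached 1 CPM in each library. Between 14263 and 14437 genes did so in a single library. Another 17085 genes had no read in any library, 4237 of them protein-coding. Most reads came from genes of middling level. The 7758 genes between 10 and 100 CPM took 32.7% of the reads, the 2673 genes between 100 and 1000 CPM took 57.2%, and the 48 genes at 1000 CPM or more took 8.37%. The 10 most abundant genes of a library held 3.35% ± 0.0878 of its reads, the top 100 held 12.7% ± 0.399 and the top 1000 held 41.8% ± 0.263. Protein-coding genes accounted for 96.7% ± 0.122 of the reads in the table. Per length, protein-coding genes at the threshold had a median of 27.9 TPM, 1853 of them lay at 100 TPM or more, and 71 at 1000 TPM or more.

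**Figure D1:**
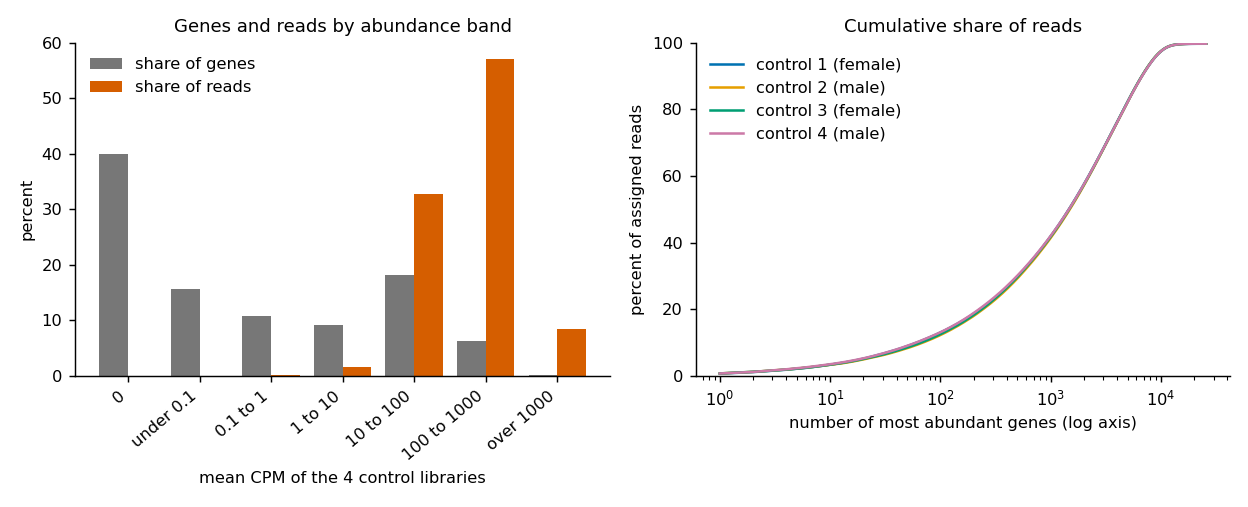
Abundance of genes in the 4 control libraries. The left panel plots, for bands of mean CPM, the percent of the 42775 genes (grey) and of the reads (orange) in each band, and the right panel the cumulative percent of assigned reads against the number of most abundant genes on a log axis, 1 line per library. The 2673 genes between 100 and 1000 CPM hold 57.2% of the reads, and the 4 lines nearly coincide, with 41.8% ± 0.263 of the reads in the top 1000 genes.

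Abundant nuclear transcripts included those of protein synthesis, duct epithelium, red blood cells, cytoskeleton and cartilage matrix. Eef1a1, which brings aminoacyl-tRNA to the ribosome, had the highest CPM, with 6582, 7203, 7206 and 7006 CPM. Its per-length level was 9752, 10569, 10199 and 9996 TPM, above that of every other nuclear protein-coding gene in each library, although 26.6% of its 75-base windows also occur in transcripts of other annotated genes and its assignment is uncertain to that extent. Next came Oc90, which encodes otoconin-90, a protein of the otoconial matrix made by non-sensory otic epithelium, with 4909, 4463, 4634 and 4731 TPM. The chaperone gene Hsp90ab1 followed below it in each library at 3781 ± 115 TPM. Ptma, encoding the chromatin-associated prothymosin alpha, averaged 3714 ± 128 TPM and could not be ordered against Hsp90ab1, since their order changed between libraries. The ribosomal protein gene Rplp1 lay below Ptma in each library at 3407 ± 292 TPM, with 45.9% of its windows shared with other genes, and Rps15 lay below Rplp1 at 3134 ± 275 TPM. The embryonic globin gene Hbb-y (2781 ± 751 TPM), the elongation factor gene Eef2 (2642 ± 88.2 TPM) and the actin gene Actb (2481 ± 145 TPM) were among the next genes. The order of these changed between libraries.

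Reads per gene without regard to length gave another order of means, which says nothing of levels. Col2a1, the main collagen of cartilage, had 3960, 4030, 3494 and 4717 CPM, the next mean after that of Eef1a1, although Yam1 or mt-Co1 had more CPM in 3 of the 4 libraries. Per length Col2a1 averaged 1582 ± 197 TPM. H19, an imprinted noncoding RNA, averaged 2764 CPM and Nedd4, a ubiquitin ligase, 2754 CPM. Per length H19 averaged 4052 ± 327 TPM, below Oc90 and above Hsp90ab1 in each library. Oc90 averaged 2482 CPM, Igfbp5 1814 CPM, the lipid desaturase gene Scd2 and the tubulin gene Tubb5 also stood among the 20 highest, and Ctnnb1, which encodes β-catenin, averaged 1634 CPM. Yam1, a noncoding RNA annotated in a region of ribosomal RNA sequence, had 1855, 4712, 4943 and 2070 CPM, high in control replicates 2 and 3 and low in 1 and 4. Gm23935 and Gm27483, annotated as small RNAs, also reached the 20 highest TPM. They are 57 and 71 bases long, shorter than a read, so that their TPM cannot be read as a level like that of a longer gene.

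Cytoplasmic ribosomal protein genes took 2.72%, 3.16%, 3.37% and 3.19% of the reads, and 86 of 90 annotated members reached 1 CPM. Some members sat far below their partners in the ribosome. Rpl13a averaged 14.9 CPM and Rpl24 2.02 CPM, with 19.3% and 50.3% of their windows shared with other annotated genes. The reference gene Gapdh was as low, with 13.3, 7.77, 3.94 and 7.98 TPM, and 22.6% of its windows are shared. Such values are uncertain, because reads of genes with many near-identical copies can be lost or split in counting. Among the other reference genes the levels were spread widely, with Rplp0, 21.3% of whose windows are shared, at 2430 ± 144, Ywhaz at 774 ± 64.9, Polr2a at 251 ± 29.4, Sdha at 235 ± 6.17, Hprt at 66.3 ± 8.18 and Tbp at 9.82 ± 1.33 TPM.

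Of 9 gene families summed, the genes of the mitochondrial genome set the libraries apart the most. They took 1.82%, 0.605%, 0.753% and 1.74% of the reads, and the highest share was 3.01 times the lowest. The shares were higher in control replicates 1 and 4, a pairing seen in the values and not given by the labels. Any 4 values split into a higher and a lower pair, so the split itself is not read as a result. mt-Co1, a core subunit of cytochrome c oxidase, had 4657, 1675, 2003 and 4600 CPM. mt-Co2, another subunit of that enzyme, had 1865, 314, 446 and 1992 CPM. Of the windows of mt-Co2, 99.5% occur in another annotated gene, against 39.8% for mt-Co1, so mt-Co2 is the less certain of them. What set the libraries apart in this respect was not tested.

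Promoter sequence was set beside level. Short elements were searched on both strands in the 60 bases before each RefSeq start site (GRCm38.p6), TATAAA, the core of a TATA box, and GGGCGG, the core of a GC box. Their reverse complements are TTTATA and CCGCCC. Of all 27025 genes with such a sequence, 4.66% held TATAAA and 21% GGGCGG. Among protein-coding genes, TATAAA was in 11.7% of the 2928 with no read, 7.41% of the 2955 with reads under 1 CPM, 3.9% of the 1998 between 1 and 10 CPM, 1.84% of the 5709 between 10 and 100 CPM and 1.89% of the 2059 at 100 CPM or more. GGGCGG ran the other way over the same bands, with 3.11%, 16.2%, 35.8%, 42.9% and 46.2%. The 100 highest protein-coding genes by TPM did not continue this, since of the 57 with a sequence 5.26% held TATAAA and 31.6% GGGCGG. These shares describe letters in a window, and a match does not show that a factor was bound there.

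Examples are shown for Eef1a1, the gene of the highest CPM, for Grb10, the steadiest one, and for Mybl2, the gene the study follows. Others are Epcam, a surface protein of the duct epithelium, Sox2 and Jag1, which mark the prosensory domain, and the embryonic globin gene Hbb-y. Otor, a gene of the inner ear, was picked because it holds a TATA element. Each run is the 60 bases before the RefSeq start site, 5′ to 3′ on the gene's own strand, with matches to the elements in capitals. Grb10 has another RefSeq start site, whose window holds neither element and is not shown.
Eef1a1 (chr9:78481725-78481784, minus strand): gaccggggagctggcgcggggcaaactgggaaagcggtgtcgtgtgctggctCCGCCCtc
Grb10 (chr11:12037421-12037480, minus strand): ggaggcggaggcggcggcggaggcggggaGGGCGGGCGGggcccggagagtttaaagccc
Mybl2 (chr2:163054575-163054634, plus strand): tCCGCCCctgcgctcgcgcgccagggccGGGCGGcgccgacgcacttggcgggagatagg
Epcam (chr17:87635919-87635978, plus strand): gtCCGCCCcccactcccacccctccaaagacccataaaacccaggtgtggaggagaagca
Sox2 (chr3:34649935-34649994, plus strand): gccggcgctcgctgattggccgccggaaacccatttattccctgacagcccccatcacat
Jag1 (chr2:137116521-137116580, minus strand): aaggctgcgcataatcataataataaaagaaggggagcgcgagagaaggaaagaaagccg
Hbb-y (chr7:103853208-103853267, minus strand): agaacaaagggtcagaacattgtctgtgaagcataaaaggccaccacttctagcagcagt
Otor (chr2:143078333-143078392, plus strand): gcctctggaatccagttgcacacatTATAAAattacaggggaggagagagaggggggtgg
Eef1a1, Grb10, Mybl2 and Epcam hold GC box cores in the windows shown, while Sox2, Jag1 and Hbb-y hold neither element and Otor holds TATAAA. The windows of Igfbp5, Fbxo2, Tectb, Gata3 and Isl1, also read but not shown, hold neither element.

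The cell type lists were read next, beside the labelled tissue. Markers of the cochlear duct epithelium were the most abundant of the 19 lists, with a summed level of 7535, 7511, 7648 and 7823 TPM. Of its 12 members 11 reached 1 CPM, against 60% of all protein-coding genes. That share is also the background for the member counts of the other lists below. Oc90, at 4684 ± 186 TPM, supplied most of the summed level, so the rank of this list above cartilage (5625 ± 417 TPM) rests on that gene. Lists also differ in their number of members and were summed without adjustment. Fbxo2, a ubiquitin ligase subunit used as a reporter locus for the otic epithelium, had 725, 1033, 875 and 966 TPM, lowest in control replicate 1. Cldn6, a tight junction claudin of embryonic epithelia, averaged 772 ± 42.8 TPM. Epcam had 417, 483, 492 and 445 TPM, and the simple-epithelial keratin genes Krt8 and Krt18 lay below it at 285 ± 31.0 and 195 ± 20.1 TPM, with 22% of the windows of Krt8 shared with other genes. The adhesion gene Cdh1, encoding E-cadherin, averaged 96.0 ± 8.22 TPM. Pax2, an early otic regulator, averaged 30.9 ± 2.87 TPM. Pax8, which acts with Pax2 when the otic placode forms, was the member below the threshold, at 0.143 CPM.

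All 15 markers of the prosensory domain reached 1 CPM in each library, and their sum was 1184, 1307, 1192 and 1168 TPM. The zinc finger gene Gata3 led with 296, 359, 300 and 329 TPM, above the rest of the list in each library. Among the members below it was a band of genes whose order changed between libraries. Isl1, a LIM homeodomain gene, had 115, 114, 99.3 and 101 TPM. Sox2, which confers sensory competence, had 91.7, 117, 116 and 89.8 TPM. Jag1, the Notch ligand of the same domain, had 101, 108, 89.9 and 101 TPM. Cdkn1b, whose protein p27 marks the cells as they leave the cycle, averaged 100 ± 6.58 TPM, so that these genes stood within the spread of one another. The fringe gene Lfng averaged 18 ± 2.41 TPM, and the remaining members ran from 4.74 ± 1.12 TPM for the neurotrophin gene Bdnf to 93.1 ± 7.91 TPM for Eya1.

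Hair cell markers were low in level. Of 13 members 7 (53.8%) reached 1 CPM, near the 60% of all protein-coding genes. Their sum was 81.1 ± 9.71 TPM, of which the unconventional myosin gene Myo6, which other cells also use, supplied 41.1 ± 4.83 TPM. Atoh1, the gene that starts hair cell differentiation, had 2.75, 3.66, 2.72 and 3.13 TPM. Pou4f3, which follows it, had 4.90, 5.71, 4.91 and 3.52 TPM. Both had reads in each library and lay below Gata3, Isl1, Sox2, Jag1, Cdkn1b and Lfng in each of them. Myo7a, a motor of the hair bundle, averaged 3.13 ± 0.565 TPM, while Gfi1, a zinc finger gene of differentiating hair cells, averaged 0.557 CPM. The markers of mature function lay at or near 0, with Otof at 0.269 CPM and Tmc1 at 0.0601 CPM.

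The medial duct and tectorial membrane list, by contrast, was high, with 7 of 8 members at the threshold and sums of 995, 1493, 1133 and 1388 TPM. Tectb, encoding β-tectorin of the tectorial membrane, had 535, 948, 715 and 881 TPM. Its partner Tecta, encoding α-tectorin, had 196, 255.8, 183 and 242 TPM. For both genes control replicates 2 and 4, labelled male, lay above 1 and 3, labelled female. The share of all genes with that order is not given here, so it is not read as a trait of these genes. The gel matrix genes Otogl and Otog followed at 105 ± 10.9 and 74.3 ± 11.6 TPM, and Prdm16, a transcription factor of the medial floor, averaged 27.5 ± 1.91 TPM. Ceacam16, a late component of the same membrane, averaged 0.0155 CPM.

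Mesenchyme and cartilage were well represented. All 11 markers of periotic mesenchyme reached 1 CPM, with a sum of 1771 ± 63.7 TPM. Lum, the matrix proteoglycan lumican, led with 665, 764, 720 and 691 TPM. Pou3f4, a POU-domain gene of otic mesenchyme, had 266, 285, 255.8 and 269 TPM, and Tbx18, a T-box gene of otic fibrocytes, averaged 152 ± 12.7 TPM. In the cartilage list 13 of 15 members reached the threshold and the sum was 5548, 5573, 5187 and 6191 TPM. Col9a2, one of the collagen IX chains on type II fibrils, averaged 1331 ± 128 TPM, below Col2a1 in each library. Lect1, which encodes chondromodulin, averaged 1178 ± 30.3 TPM, and Sox9, the regulator of cartilage that otic epithelium also expresses, 264 ± 16 TPM. Acan, the large proteoglycan aggrecan, varied widely, with 32.2, 18.5, 13.5 and 36.6 TPM, high in control replicates 1 and 4 and a CV of CPM of 43.5%. Matn1 of the same list varied more, with a CV of 46.8%. It had 9.41, 18.5, 6.26 and 17.7 CPM, high in control replicates 2 and 4 instead. Col10a1, the collagen of hypertrophic cartilage, was near 0 at 0.0378 CPM, and the bone list had a sum of 63.5 ± 6.56 TPM.

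Neural tissue was present at low level and glial genes at higher level. Of the 16 neuronal markers 14 reached 1 CPM, with a sum of 253 ± 27.2 TPM. The growth cone gene Gap43 had 102, 85.9, 107 and 93.1 TPM and the neuronal tubulin gene Tubb3 had 65.0, 58.9, 85.4 and 75.4 TPM. Neurod1, which drives spiral ganglion differentiation, averaged 17.6 ± 3.52 TPM, but Neurog1, which acts before it, averaged 0.296 CPM. In the list for Schwann cells and glia 9 of 10 members reached the threshold, with a sum of 617 ± 21.1 TPM. Sox10, at 275 ± 24.1 TPM, supplied much of it, as did the neuregulin receptor gene Erbb3 at 252 ± 8.70 TPM. Both are also used by otic epithelium or other neural crest derivatives. Melanocyte markers reached 1 CPM in 4 of 7 members, near the 60% of all protein-coding genes. They were led by Pmel at 31.9 ± 3.34 TPM and Dct at 24.4 ± 2.59 TPM, while Tyrp1 averaged 0.329 CPM.

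Vessels, blood and immune cells were represented too. Of 13 endothelial markers 12 reached 1 CPM, with a sum of 126 ± 16.8 TPM, and Cldn5, Emcn, Cdh5 and Erg led it at 21.3 ± 5.96, 18.8 ± 2.44, 17.0 ± 3.02 and 16.6 ± 2.01 TPM without a stable order. Of 10 pericyte and smooth muscle markers 7 reached 1 CPM, near the 60% of all protein-coding genes. The list summed to 512 ± 43.5 TPM, with the actin-binding gene Tagln at 153 ± 23.2 TPM. Kcnj8, Myh11 and Higd1b lay under the threshold at 0.935, 0.680 and 0.0140 CPM, so the sum rests on the other members. Macrophage markers summed to 111 ± 14.9 TPM, of which the lysozyme gene Lyz2 supplied 52.5 ± 9.25 TPM. The receptor gene Csf1r, which macrophages need, averaged 4.00 ± 0.631 TPM. Erythroid genes varied most of the large lists, with sums of 3518, 2840, 4895 and 2847 TPM, highest in control replicate 3. Hbb-y, an embryonic β-like globin gene of primitive red cells, made up most of that at 2745, 2285, 3854 and 2241 TPM. The α-like embryonic globin gene Hba-x averaged 213 ± 54.5 TPM and the lasting globin gene Hba-a1 337 ± 117 TPM, with 67.9% of its windows shared. Its near-identical copy Hba-a2 was listed at 0.0173 CPM with 84.6% of its windows shared, so that the split between these copies is uncertain.

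Markers of tissues that could have been carried over in dissection were low. Skeletal muscle markers reached 1 CPM in 2 of 10 members and summed to 9.39, 5.30, 9.42 and 8.68 TPM. Central nervous system markers did so in 2 of 11 members and summed to 4.27 ± 0.530 TPM. Liver markers reached it in 1 of 6 and heart muscle markers in 1 of 5 members, with sums of 7.01 ± 2.10 and 2.66 ± 0.858 TPM. The defining muscle gene Myod1 averaged 0.00280 CPM. Epidermal markers reached 1 CPM in 4 of 8 members, beside 60% of all protein-coding genes, and summed to 30.6 ± 0.893 TPM. The keratin genes Krt10 and Krt15 averaged 8.88 and 4.33 CPM, and Krt5 and Krt14 averaged 0.244 and 0.155 CPM. In each library the markers of the labelled tissue summed to more than those of each of these tissues. The lists were chosen with earlier results of these data known and summed without adjustment, so these sums do not test the tissue.

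**Figure D2:**
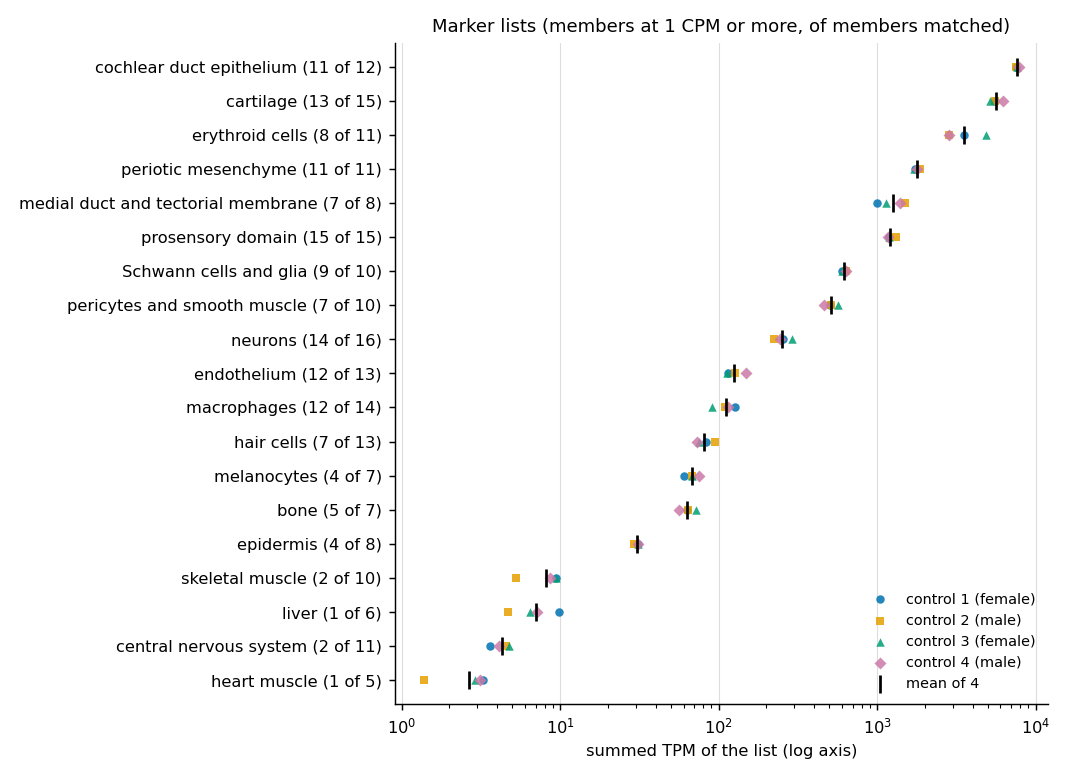
Summed level of the 19 cell type marker lists in the 4 control libraries. Each row is a list, each point a library, and the horizontal axis is the summed TPM on a log scale. Duct epithelium at 7629 ± 142 TPM and cartilage at 5625 ± 417 TPM lead, erythroid genes spread most among the large lists, from 2840 to 4895 TPM, and heart muscle lies lowest at 2.66 ± 0.858 TPM.

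Transcription factors bind DNA and set which genes a cell uses, and most act at modest transcript levels. The families searched by symbol held 1029 genes, of which 772 (75.0%) reached 1 CPM and 63 reached 100 TPM. Ybx1, a cold shock domain protein that also binds RNA, was highest at 796, 781, 824 and 782 TPM, above all other factors in each library. Irx3, an Iroquois homeobox gene, averaged 636 ± 62.9 TPM and Id3, an inhibitor of bHLH factors, 626 ± 53.1 TPM, and their order changed between libraries. Sox4, a SoxC gene of progenitors, lay below both at 508, 558, 531 and 484 TPM. Id1 (424 ± 34.2 TPM) and Six2 (396 ± 38.5 TPM) came next. From Jund (327 ± 56.7 TPM) and Gata3 (321 ± 28.9 TPM) through Sox11 (319 ± 36.7 TPM), the E protein gene Tcf3 (307 ± 13.8 TPM) and the nuclear receptor gene Nr2f1 (302 ± 14.7 TPM), neighbours did not differ beyond their spread. Also among the 20 highest were Atf4, Sall2, Sox10, Pou3f4, Sox9, Id2, Zfp740 and Tbx2, between 224 and 279 TPM.

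Families differed in how many of their members were in use, beside 75.0% of all factors searched and 60% of all protein-coding genes. SOX, POU and GATA, at 65%, 53.3% and 50%, were small families near the latter share. Of 20 SOX genes 13 reached 1 CPM, with Sox4 above all others in each library and Sox11, Sox10 and Sox9 in no stable order above Sox2. Of 17 T-box genes 7 did, led by Tbx2 at 227, 229, 221 and 221 TPM, with a CV of CPM of 0.919%. Gata3 led 6 GATA genes of which 3 passed, and Pou3f4 led 15 POU genes of which 8 passed. Pax2 was the highest of 9 PAX genes, of which 2 reached 1 CPM. Lmx1a, a LIM homeodomain gene of the non-sensory duct, averaged 132 ± 16.3 TPM. The Iroquois and MEIS families were almost fully in use, with 16 of 17 genes at the threshold and a sum of 1549 ± 86.2 TPM. Families of general regulators were likewise near complete, such as E2F and DP with 10 of 10 genes, led by Tfdp1 at 144 ± 7.91 TPM. A broad zinc finger family, not limited to Zfp-named genes, had 366 of 401 at the threshold. Mybl2, which encodes the cell cycle regulator B-MYB, led the 3 MYB genes with 27.2, 24.5, 25.2 and 26.5 TPM.

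HOX genes, which specify position along the body axis behind the midbrain, lay nearly all under the threshold. Of 39 measured, 1 reached 1 CPM. This was Hoxa2, a gene of the hindbrain and the second pharyngeal arch, with 10.9, 9.49, 9.83 and 9.78 CPM and 20.4 ± 1.58 TPM. The next, Hoxb2, averaged 0.508 CPM. Among the 30 otic factors listed 28 reached 1 CPM, and the axial regulators included Otx2 at 61.5 ± 4.69 TPM, Tbx1 at 65.6 ± 2.07 TPM and Emx2 at 53.6 ± 3.91 TPM.

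**Figure D3:**
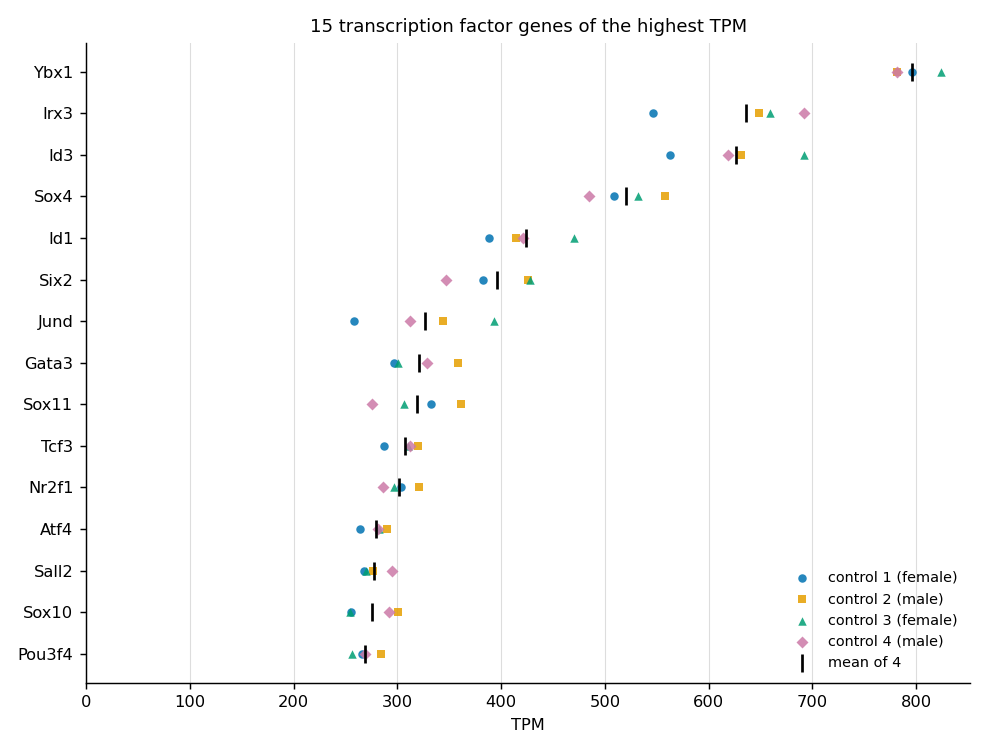
TPM of the 15 highest transcription factor genes in the 4 control libraries, on a linear axis. Each point is a library and the vertical tick the mean of 4. Ybx1 at 796 ± 19.9 TPM is set apart from Irx3 and Id3, which overlap, and from Jund down to Pou3f4 the means run from 327 to 269 TPM with overlap between neighbours.

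Wnt ligands act through Frizzled receptors and LRP coreceptors to protect β-catenin from the destruction complex, so that it can act with TCF and LEF factors. Ligands were few and modest, with 9 of 19 at 1 CPM and a sum of 188, 220, 224 and 220 TPM. Wnt7b had 66.4, 92.0, 88.2 and 86.5 TPM, lowest in control replicate 1. Wnt5a, which mainly signals without β-catenin, had 67.6, 69.2, 66.7 and 68.6 TPM and, with a CV of CPM of 2.14%, was the steadiest of these 9 ligands. Wnt4 averaged 20.8 ± 3.37 and Wnt9a 13 ± 1.32 TPM. Porcn, the acyltransferase that makes Wnt proteins fit for release, averaged 11.7 ± 0.621 TPM, below the Wnt carrier gene Wls at 127 ± 8.08 TPM in each library.

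Receptors were used far more widely. Of 15 listed 14 reached the threshold, with Fzd7 at 326, 342, 345 and 321 TPM above all others, and Fzd1 and Fzd2 at 144 ± 9.14 and 140 ± 12 TPM in no stable order. The R-spondin receptor gene Lgr4 averaged 53.7 ± 3.77 TPM and Lgr5, which also marks prosensory cells, 11.8 ± 2.48 TPM. Among inhibitors the secreted Sfrp1 led with 525, 597, 634 and 540 TPM, above Nkd1 at 96.0 ± 12.4 TPM. The feedback gene Axin2, itself a common readout of β-catenin activity, had 54.7, 60.2, 50.2 and 65.0 TPM. Ctnnb1 had 1148, 1163, 1123 and 1111 TPM, above its kinase genes Gsk3a at 147 ± 5.51 and Gsk3b at 99.3 ± 8.48 TPM. In the nucleus Tcf7l1 led the TCF and LEF family at 78.1 ± 6.30 TPM, with Lef1 at 42.1 ± 2.92 TPM.

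Notch signalling passes between touching cells and later separates hair cells from supporting cells. Jag1 was its most abundant ligand at 100 ± 7.58 TPM, above Jag2 at 9.88 ± 1.31, Dll4 at 3.81 ± 0.640 and Dll1 at 2.10 ± 0.539 TPM in each library. The receptor order was the same in each library, with Notch3 at 97.9 ± 11.0, Notch1 at 57.0 ± 5.93, Notch2 at 49.2 ± 7.73 and Notch4 at 4.13 ± 0.477 TPM. Of the effectors 7 of 8 reached the threshold, among them Hes6 at 87.7 ± 12.1, Hes1 at 56.8 ± 3.07 and Hey1 at 45.0 ± 2.16 TPM. Hes5, a direct target in active lateral inhibition, averaged 0.0765 CPM.

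FGF ligands pattern the duct and its prosensory floor. Of 22 ligands 9 reached 1 CPM, with Fgf10 at 44.7, 53.8, 46.9 and 39.4 TPM above Fgf9 at 26.5 ± 3.97 TPM and Fgf20 at 12.9 ± 2.85 TPM. All 5 receptors passed, Fgfrl1 highest at 139 ± 6.53 TPM, then Fgfr1 at 76.7 ± 7.87 and Fgfr2 at 62.3 ± 4.80 TPM. All 10 response genes passed as well. Dusp6, which removes phosphate from ERK, averaged 110 ± 9.94 TPM, and Etv5 averaged 79.9 ± 2.15 TPM with a CV of CPM of 0.761%.

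All 15 BMP and TGF-β ligands were in use. Tgfb2 led with 414, 484, 402 and 413 TPM, highest in control replicate 2. Bmp4, a signal of the outer wall side of the duct, had 153, 192, 156 and 172 TPM, above Gdf11 at 120 ± 1.49 TPM. Their type I receptors Bmpr1a and Tgfbr1 averaged 174 ± 15.9 and 142 ± 12.6 TPM. All 9 inhibitors reached the threshold, among them Smad6 at 68.2 ± 8.26, Fst at 61.4 ± 7.98 and Nog at 35.9 ± 5.31 TPM. The Id genes, standard targets of BMP signalling, were the highest effectors, as given above for Id3 and Id1.

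In the Hedgehog pathway receptors were in use and ligands lay under the threshold. None of the 3 ligand genes reached 1 CPM, with Dhh at 0.568, Ihh at 0.340 and Shh at 0.0326 CPM. Smo, which relays the signal, averaged 165 ± 8.2 TPM and the coreceptor gene Gas1 had 484, 572, 626 and 537 TPM. The genes that active Hedgehog signalling induces were low. Ptch1 had 7.88, 8.93, 6.60 and 7.44 TPM, and Gli1 had 1.36, 3.28, 0.687 and 1.36 TPM, against 93.4 ± 7.55 TPM for Gli3, whose protein represses when the signal is absent.

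**Figure D4:**
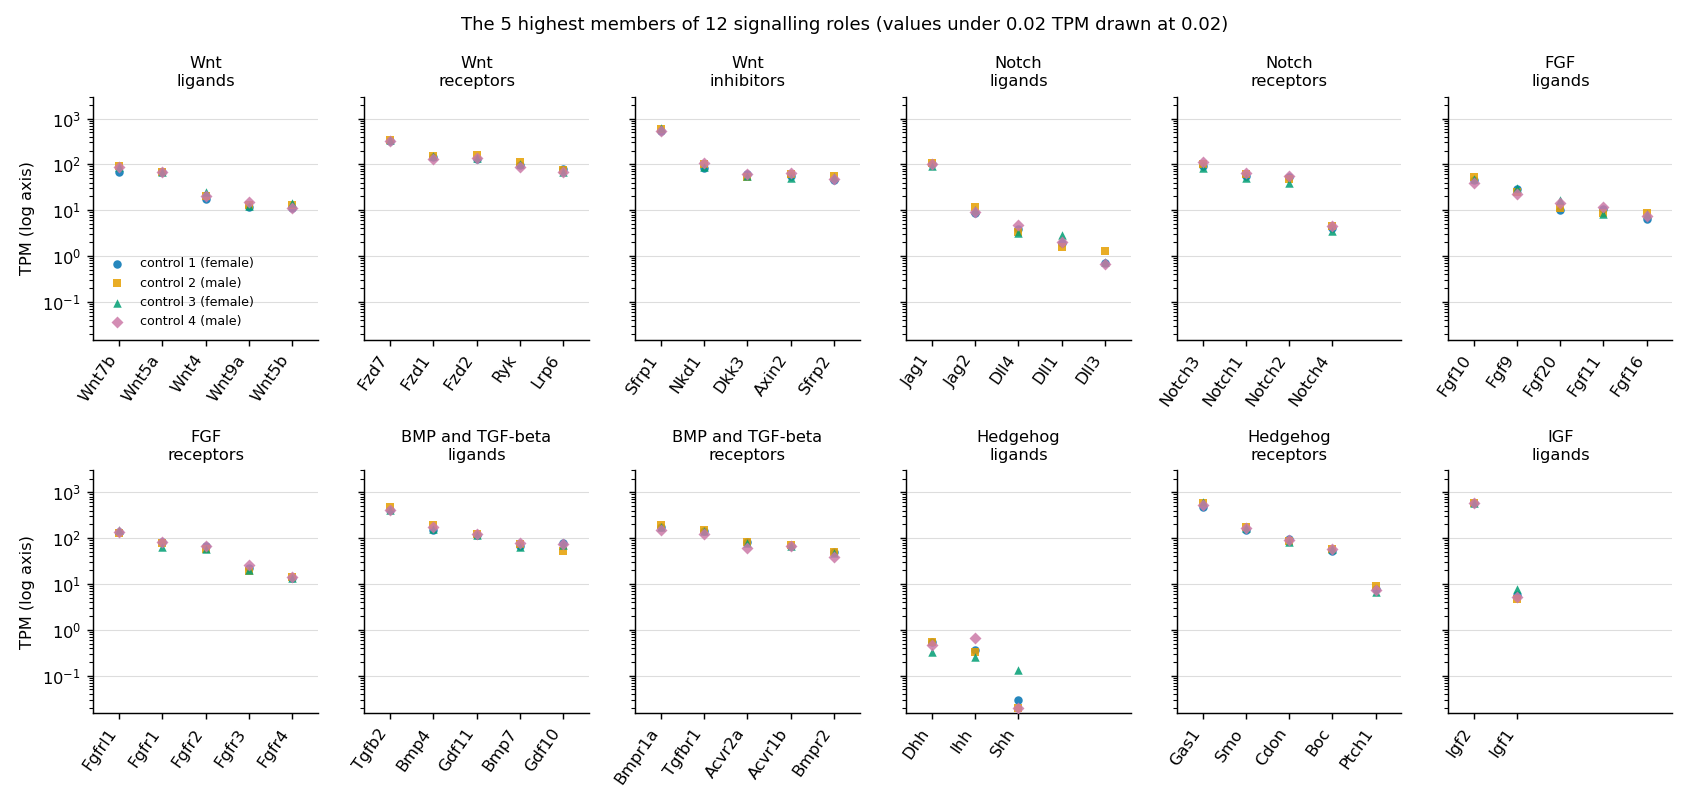
TPM of the 5 highest members of 12 signalling roles in the 4 control libraries, on a log axis. Each point is a library, and values under 0.02 TPM are drawn at 0.02. Sfrp1 at 574 ± 50.8 TPM leads the Wnt inhibitors, Jag1 at 100 ± 7.58 TPM leads the Notch ligands, and the 3 Hedgehog ligands lie lowest.

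Retinoic acid is made by retinaldehyde dehydrogenases and broken down by CYP26 enzymes, and both sides were in use. Aldh1a3 had 99.7, 45.4, 141 and 111 TPM, lowest in control replicate 2 and the most variable gene of the pathway at high level. Rdh10, the step before it, had 75.0, 53.5, 87.9 and 75.9 TPM and was lowest in the same library. The breakdown gene Cyp26a1 averaged 41.2 ± 6.99 TPM, and Crabp2, which carries retinoic acid in the cell, 283 ± 23.9 TPM.

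Growth factors of the IGF and heparin-binding kinds stood among the most abundant signalling genes. Igf2 averaged 580 ± 10.1 TPM with 60.3% of its windows in another annotated gene, which leaves its level uncertain, and Igf1 averaged 5.84 ± 1.41 TPM. Igfbp5, which binds IGFs outside the cell, averaged 1089 ± 51.7 TPM, above Igfbp4 at 293 ± 22.6 TPM. Mdk, encoding midkine, had 988, 1120, 1341 and 1108 TPM, and its relative Ptn, encoding pleiotrophin, averaged 852 ± 46.1 TPM. Ntf3, the neurotrophin that spiral ganglion neurons need, averaged 40.9 ± 4.18 TPM. All 13 Hippo pathway genes reached the threshold, with Tead2 at 220 ± 11.0 and Yap1 at 160 ± 5.74 TPM.

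Transcripts of both cell cycle progression genes and cycle inhibitors were found. All 28 progression genes reached 1 CPM in each library, with a sum of 3131 ± 92.3 TPM. Cdk4, the partner of D-type cyclins, averaged 590 ± 27 TPM, and its cyclin genes Ccnd2 and Ccnd1 averaged 265 ± 20 and 224 ± 11.7 TPM. Mki67, carried by cycling cells, had 126, 97.6, 89.4 and 103 TPM. Of the inhibitors Cdkn1c led with 517, 611, 638 and 597 TPM, above Cdkn1b and Cdkn1a in each library. Imprinted growth genes were abundant, with 14 of 17 at the threshold. Besides H19, Igf2 and Cdkn1c they included Grb10 and also Mest, which averaged 482 ± 19.1 TPM. Hmga1 and Hmga2, chromatin proteins of immature tissue, averaged 91.7 ± 10.7 and 87.1 ± 11.3 TPM, and 46.9% of the windows of Hmga1 occur in another gene, which leaves its level uncertain. Lin28b, which blocks let-7, was low at 4.44 ± 0.877 TPM.

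Immediate early and stress genes are known to rise with handling of tissue. The 14 immediate early genes summed to 696, 809, 960 and 799 TPM, highest in control replicate 3, and the list's members had a median CV of 17.8%, beside 9.41% over all genes at 1 CPM. Fos was at 11.1, 12.2, 13.9 and 15.9 TPM, well under Jund and Ier2 (212 ± 28.7 TPM). The endoplasmic reticulum chaperone gene Hspa5 averaged 983 ± 58.2 TPM, and the heat shock gene Hspa1b had 2.76, 7.77, 10.7 and 2.78 TPM, with 55.8% of its windows shared.

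How steadily a gene was read varied with its level. The CV is the SD of CPM over the 4 libraries divided by their mean. It had a median of 9.41% over the 14371 genes at 1 CPM, with quartiles of 6.25% and 14.9%, where counting alone gave a median of 1.99%. Over the 10098 protein-coding genes at 10 CPM or more the median was 7.75%, with 1.53% from counting, and 97% of these genes stayed under 20%. Only 70 (0.693%) exceeded 30%, and 93 (0.921%) varied less than counting alone would give on average. The biological coefficient of variation of edgeR, a spread with counting error removed, was 16.7% in common over the genes at 1 CPM, with gene-wise medians of 24.8% between 1 and 10 CPM and 9.01% between 100 and 1000 CPM.

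**Figure D5:**
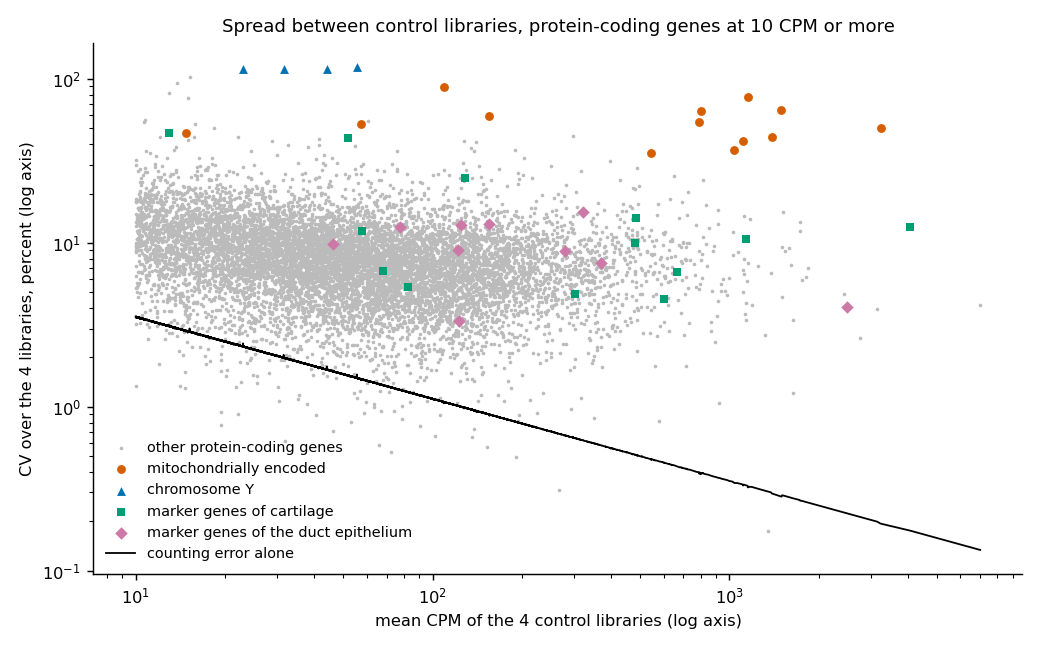
Spread between the 4 control libraries for the 10098 protein-coding genes at 10 CPM or more. The horizontal axis is mean CPM and the vertical axis the CV of CPM in percent, both on log scales, points are genes with mitochondrial, Y chromosome, cartilage and duct epithelium genes coloured, and the line is the CV that counting alone gives. Most genes lie above the line, with medians of 7.75% measured and 1.53% from counting, 93 lie under it, and the mitochondrial and Y chromosome genes lie at the top.

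The steadiest gene was Grb10, an imprinted adaptor of insulin and IGF receptors, with 1352, 1351, 1346 and 1349 CPM, a CV of 0.174% beside 0.304% from counting. Khsrp, an RNA-binding protein of splicing and decay, had 267, 266, 265 and 265 CPM. Ddx23, a helicase of the spliceosome, had 191, 190, 190 and 192 CPM. The others of the 10 steadiest were Sptlc1, Gab1, Poglut1, Prmt3, Zfp532, Gak and Cpsf4, with CVs between 0.532% and 0.715%. A CV of 4 values is itself imprecise, and these CVs describe the present libraries only.

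At the other end stood genes of the Y chromosome. Ddx3y, a helicase gene, had 0.157, 131, 0.348 and 91.3 CPM, and Eif2s3y, Uty and Kdm5d followed the same pattern, high in control replicates 2 and 4. Genes of the Y chromosome summed to 7.12, 344, 5.20 and 297 CPM, low in both libraries labelled female and high in both labelled male. Of the 15 most variable genes 5 were mitochondrial, mt-Co2 among them. The class I histocompatibility gene H2-D1 had 4.85, 11.5, 6.08 and 32.7 CPM. Prss56, a secreted protease gene, had 11.5, 0.241, 24.3 and 23.8 CPM, so that control replicate 2 was nearly without it. Cxx1a and Cxx1b each stood high in 1 library, with 38.7 CPM for Cxx1a in control replicate 2 and 28.8 CPM for Cxx1b in control replicate 4, and 77.6% and 75.1% of their windows are shared with other genes.

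Libraries as wholes were close. The log2(CPM + 1) values of the 14371 genes at 1 CPM correlated between pairs of libraries with r between 0.987 and 0.991. This is a description across genes, which are not independent replicates. Each pair differed beyond sampling noise, with a mean chi-square per gene of 38.1 to 94.9, so no library was a second copy of another. The first principal component held 41.7% of the variance and set control replicate 3 apart, and the second held 33.6% and set control replicates 1 and 2 apart. Control replicate 3 held the highest value of 31.1% and control replicate 1 the lowest value of 31.1% of the 10098 protein-coding genes. Without control replicate 3 the median CV of the genes at 1 CPM was 8.55%, the lowest of the values with 1 library left out.

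Some genes listed at 0 stand together along a chromosome, which limits what a 0 means here. Of the 21548 protein-coding genes 4237 had no read, and how often runs of such genes arise is not given here. On chromosome 19, between positions 6184388 and 6544169 (GRCm38), 13 protein-coding genes in a row averaged under 0.1 CPM and 11 of them had no read. They include Sf1, a splicing factor, and Men1, the tumour suppressor menin, both in wide use in mouse tissues. Their next neighbour Rps6ka4 had 20.2 CPM. On chromosome 12 the run was short, with 3 protein-coding genes under 0.1 CPM. Of these the imprinted genes Dlk1 and Rtl1 were listed at 0. The noncoding gene Meg3 was listed at 0.319 CPM, with Ppp2r5c beyond them at 122 CPM. The stretch was not without reads, since the noncoding gene Mirg within it had 6.40, 4.30, 3.15 and 6.47 CPM. None of the 75-base windows of Sf1, Men1 or Dlk1 occurs in another annotated gene. Whether these genes were silent or their reads were lost in mapping, counting or the making of the table was not tested, so a gene of such a stretch is described only as listed at 0.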

How the data were processed

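RNA of mouse cochlear explants was prepared as strand-specific polyadenylated libraries. Alignment by the authors used HISAT2, of a version not given in the sources used here, and GRCm38 with annotation release 91. The counting tool is likewise not given in the sources used here. The values deposited by the authors are CPM per gene and library, scaled to the reads they assigned, with 1 column per sample and no pooling. Their columns of fold ratios, log2 fold changes, p-values and false discovery rates hold their own comparison and were not used, and the 4 CHIR99021 libraries were not analysed here. Columns of per-sample values without a sample numbered 0. Groups and replicate numbers came from the sample titles.

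The CPM of 1 read was found in each library, and 100% of values were whole reads within 0.001 read. No count test was run, as no groups were compared. TPM were computed from these reads and merged exon lengths of GENCODE M21, which held 99.5% of the gene identifiers, and 27 symbols that a spreadsheet had turned into dates were restored from it. Shared windows are the percent of 75-base windows of a gene's transcripts found in another gene's. Scaling factors and biological coefficients of variation came from edgeR 4.0.16 and DESeq2 1.42.0 in R 4.3.3, everything else from Python with numpy 2.4.6 and pandas 2.3.3. Recovery was tested on simulated data for 42775 genes, and 100% of values were recovered.

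The members and gene lists were chosen with earlier results of these data known, from general knowledge of the genes. Named were the 20 genes of highest CPM and TPM, the 4 highest members of each list and role and the first 3 of each cell type list, the 20 highest transcription factors and the highest of each family, the 15 largest and 10 smallest CVs among protein-coding genes at 10 CPM, the genes the study names, and reference and HOX genes at 1 CPM. Alternatives were other scalings, thresholds, totals, gene lengths and pseudocounts, and leaving out each library. Some genes that this rule names are not reported here. Promoter sequences are from RefSeq on GRCm38.p6.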

Additional observations from a re-analysis of the deposited data

Results flagged for a closer look

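In each group of values the 4 libraries were checked for 1 that stood far from the others, by the gap to its nearest neighbour over the whole range. Chance alone marks about 1 in 20. Of 310 named genes at the threshold 17 (5.48%) were marked, of 62 lists 5 (8.06%) and of 12 library shares and counts 1 (8.33%).

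Control replicate 1 stood low in the Wnt ligands, with a summed level of 188 TPM, and in Wnt7b with 88.1 CPM. It was also low in Rxra at 174, in Tcf3 at 314 and in Atf4 at 168 CPM, and in the summed level of hereditary deafness genes, 3219 TPM, a sum led by the cytoplasmic actin gene Actg1. Control replicate 2 stood high in the prosensory markers at 1307 TPM, in Slc17a6 at 3.16 CPM and in Cxx1a at 38.7 CPM, and low in Oc90 at 2333 CPM, Rspo3 at 1.16 CPM and the epidermal markers at 29.3 TPM. Control replicate 3 stood high in Ccnd1 at 321 CPM and low in Cx3cr1 at 2.04 CPM and in the summed cadherins at 544 TPM. Control replicate 4 stood high in H19 at 3137 CPM, Sufu at 81.2 CPM, Cxx1b at 28.8 CPM and C1qa at 3.40 CPM. It stood low in Acvr2a at 95.2, Sp3 at 133.9 and Eif4g2 at 1439 CPM, and its lincRNA share was 0.877%. No explanation was tested for any of these.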

How the results depend on the processing

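The genes at the expression threshold numbered 14372 under TMM and under DESeq2 size factors, 15618 at a mean of 0.5 CPM, 13691 with 1 CPM in each library and 14349 to 14406 with 1 library left out. The top 100 genes held 12.3% of the reads without mitochondrially encoded genes. The median CV was 21.5% with no filter beyond a read in 1 library and 7.87% at a mean of 10 CPM, and it ran from 8.55% to 9.54% with 1 library left out. The transcription factor genes at the expression threshold numbered 798 at 0.5 CPM and 753 with 1 CPM in each library. Of the 15 genes of largest CV, 15 were shared under TMM and 10 to 13 with 1 library left out. Taking the longest transcript as length moved the TPM of 213 of 336 named genes by over 1 SD, with ratios of the new to the reported TPM from 0.773 (Olig2) to 2.06 (Eno1), so levels of neighbouring genes can change order. Taking nuclear protein-coding reads as the total raised every TPM of such genes by a common factor of 1.18 to 1.22. Leaving out 1 of 4 libraries cannot move a mean by 1 SD, so it says nothing of the stability of the levels. No paired analysis was possible because no groups were compared. Genes under 1 CPM have too few reads to be ordered, and TPM rests on annotated lengths. The reads lost to shared sequence were not estimated.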

Other observations

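Of 40 genes of hereditary deafness, a list chosen after the data were seen, 30 reached 1 CPM. Among the high ones were Tecta at 219 ± 35 TPM, Gjb2, which encodes connexin 26, at 165, 231, 180 and 200.8 TPM, and Myh9 at 132 ± 10.6 TPM. Otof, Tmc1, Strc and Slc26a5, which serve mature hair cells, lay between 0.0331 and 0.269 CPM. The ion transport genes of the endolymph, also listed afterwards, differed widely in level. The cotransporter gene Slc12a2 averaged 76.9 ± 8.48 TPM, whereas Kcnq1 and Kcne1, the potassium channel of the stria vascularis, averaged 0.848 and 0.153 CPM and Bsnd was listed at 0. Of the 15 planar cell polarity genes 14 reached 1 CPM, led by Ptk7 at 309 ± 21.8 TPM with Vangl2 at 76.3 ± 6.43 TPM. Among the cadherins Cdh11 of mesenchyme at 160 ± 10.2 TPM lay above Cdh3 at 126 ± 8.42 TPM and Cdh1 in each library.

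Long noncoding RNAs that stay in the nucleus varied widely between libraries. Malat1 had 2307, 1078, 359 and 1521 CPM, Kcnq1ot1 had 106, 71.8, 12.4 and 88.5 CPM, Miat had 79.9, 34.5, 12.5 and 63.4 CPM, and Neat1 had 33.7, 18, 11.7 and 29.5 CPM. All 4 were highest in control replicate 1 and lowest in control replicate 3. Xist, which coats the inactive X chromosome, had 1799 and 759 CPM in the libraries labelled female, control replicates 1 and 3, and 2.95 and 1.76 CPM in those labelled male. These genes were picked after their values were seen. Mitochondrial shares were highest in control replicate 1 too but lowest in control replicate 2, and what moved the nuclear RNAs was not tested.

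The pseudogene Gm2606 had 0.840, 289, 0.492 and 0.371 CPM, high in control replicate 2 alone, with 95.9% of its windows in other genes. Lars2, a mitochondrial tRNA synthetase gene, had 160, 395, 424 and 207 CPM, high in the same libraries as Yam1.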
